A study of Mus musculus with 19 samples.

Results

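Dividing cells of the mouse carry families of genes whose products license replication origins, unwind and copy DNA, and drive the cell from one phase of its cycle to the next. The genes described here are all those in the deposited count tables whose symbol places them in the Mcm, Ccna, Ccnb, Ccnd, Ccne, Cdk, Cdc, Orc, Rfc or E2f families, 76 of 23420 genes. They comprise 9 Mcm genes, 10 cyclins, 18 Cdk genes, 20 Cdc genes, 6 Orc genes, 5 Rfc genes and 8 E2f genes. The choice rested on symbols and not on measured values, and a Cdc symbol is shared by genes of unrelated function, for instance the small GTPase gene Cdc42 and the Hsp90 co-chaperone gene Cdc37.

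Before S phase, the origin recognition complex (Orc proteins) and Cdc6 load the Mcm2 to Mcm7 helicase onto DNA. Cyclin-dependent kinases with the S phase cyclins E and A, together with the Cdc7 kinase, then turn loaded helicases into forks, for which Mcm10 and Cdc45 are needed, and replication factor C (Rfc) loads the sliding clamp. D-type cyclins with Cdk4 and Cdk6 inactivate the RB proteins and so release E2f transcription factors, whereas B-type cyclins with Cdk1 drive mitosis until Cdc20 activates the anaphase-promoting complex. Naive mouse embryonic stem cells are known for a short G1 phase and for cyclin E activity that varies little through the cycle.

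The libraries, 19 in all, were mRNA of pluripotent lines of 3 inbred strains, 129S1/SvImJ (129, regarded as permissive for embryonic stem cell derivation), NOD/ShiLtJ (NOD) and WSB/EiJ (WSB; both regarded as non-permissive). There were 3 male embryonic stem cell (ESC) lines, 1 per strain, at passage 6 in serum medium with LIF and inhibitors of GSK3B and MEK, and 2 male epiblast stem cell (EpiSC) lines, of NOD at passage 38 and of a 129/Sv background at passage 16. The 14 induced pluripotent stem cell (iPSC) libraries came from colonies grown out of pooled embryonic fibroblasts of a litter that carried a constitutive lentivirus for Oct4, Klf4, Sox2 and c-Myc, integrated at random and not removed. Each NOD and WSB group held 2 male or 2 female clones in 2iS, the LIF and serum medium with both inhibitors, at passages 16 to 26. The 129 clones, 2 male and 2 female, were grown in ESC/LIF without the inhibitors at passages 17 to 21, and the same 2 male clones were sequenced again in 2iS at passages 30 and 31. Each line or clone gave 1 library per medium, so that an ESC or EpiSC line stands for its strain alone.

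Groups followed the sample titles. The titles and the source names and characteristics of the labels named different conditions in all 19 libraries, and counts of genes on the Y chromosome contradicted the sex given by the title in 0 libraries and the sex given by the characteristics in 10. Counts assigned to Xist, the RNA of the inactive X chromosome, did not separate the sexes. They were 115 to 610 in male iPSC and ESC, 118 to 531 in female iPSC and 2 and 14 in EpiSC. The strand setting of the counting was not given, and which strand these counts came from was not tested. They are therefore not read here as expression of Xist. With the groups of the titles, 9 of 9 naive pluripotency markers tested were higher in iPSC and in ESC than in EpiSC. Depth was low, with 92996 to 567432 counts on genes, since only 1.15 to 1.74% of uniquely aligned read pairs fell on genes in 17 libraries. The 2 NOD male iPSC libraries stood apart, with 5.59 and 5.62%, and were compared separately. Expression is given as CPM, the counts of a gene per 1000000 of a library size scaled by TMM, a trimmed mean of the ratios between libraries. The floor of 3 counts, taken as the least that can be told from 0, corresponded to 5.29 to 32.3 CPM before that scaling. This floor covers counting error only. Standard errors (SE) and 95% intervals of log2 fold changes also include the spread between libraries of a group. In bulk RNA fewer cells of a type and less RNA per cell cannot be told apart, so that a lower value of a phase-specific gene may stand for either.

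The members together received 37486 counts, 0.781 to 1.26% of the counts on genes of a library. Counts were uneven, and in the 17 libraries other than NOD male iPSC Cdc23, Orc3, Ccna2 and Ccne2 alone held 52.9 to 70.4% of member counts, which is a share of counts and not a ranking of levels. Of the 76 members, 35 have exons that another gene overlaps on the opposite strand, against 24.4% of all annotated genes. These include Ccna2 with Exosc9, Ccne2 with Ints8, Cdc23 with Kif20a, and Orc4 with Acvr2a and Mbd5. The library kit keeps strand, and the strand setting of the counting was not given in the sources used here, so that reads of such a gene and of its partner may not have been told apart. Orc3, Mcm10, Ccne1 and Mcm2 to Mcm6 have no such partner. The lack of a partner does not settle which strand their counts came from, and this was not tested. Across libraries, 94.4 to 98.9% of uniquely aligned read pairs fell on no gene.

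Promoter sequence is shown for 3 members of different steps whose values are described below, Mcm10 (initiation), Mcm5 (helicase) and Cdc20 (mitosis). RefSeq windows from 250 bases before to 50 bases after the start were found for 63 of the 76 members. They were searched on both strands for the E2F motif (TTTCCCGC, TTTGGCGC, TTTCGCGC or TTTGCCGC), the CCAAT box and the CHR element of mitotic genes (TTTGAA or TTCGAA). An E2F motif was found in 15 of 63 member windows (23.8%) against 2.32% of 27025 windows of all genes, a CCAAT box in 54.0% against 37.9%, and a CHR in 22.2% against 19.4%. The Mcm family held the most E2F motifs, with 5 of 8 windows (Mcm3, Mcm5, Mcm6, Mcm7 and Mcm8), and all 8 of its windows had a CCAAT box. E2f genes followed with 3 of 6 windows, while 0 of 6 cyclin windows had an E2F motif. The cyclin genes Ccna2, Ccnd1, Ccnd2 and Ccne2 had no window and were not searched. A match is a description of letters and not evidence of a bound site.

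The 250 bases before the start of each gene, 5′ to 3′ on the strand of the gene (GRCm38.p6), are given with motifs in capitals. Mcm10 (chr2:5012792-5013041, minus strand) has 2 CCAAT boxes, 98 and 23 bases before the start, and no E2F motif in these letters. Mcm5 (chr8:75109259-75109508, plus strand) has 2 overlapping E2F motifs on opposite strands, TTTCGCGC starting 153 and TTTGGCGC 149 bases before the start, followed by 2 CCAAT boxes. Cdc20 (chr4:118437344-118437593, minus strand) has 2 CCAAT boxes, 53 and 8 bases before the start, with the CHR element TTTGAA between them.
Mcm10: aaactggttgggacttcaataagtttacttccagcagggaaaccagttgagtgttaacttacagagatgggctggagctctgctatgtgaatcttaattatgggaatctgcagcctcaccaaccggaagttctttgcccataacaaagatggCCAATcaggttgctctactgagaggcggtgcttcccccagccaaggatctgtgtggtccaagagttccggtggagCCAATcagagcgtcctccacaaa
Mcm5: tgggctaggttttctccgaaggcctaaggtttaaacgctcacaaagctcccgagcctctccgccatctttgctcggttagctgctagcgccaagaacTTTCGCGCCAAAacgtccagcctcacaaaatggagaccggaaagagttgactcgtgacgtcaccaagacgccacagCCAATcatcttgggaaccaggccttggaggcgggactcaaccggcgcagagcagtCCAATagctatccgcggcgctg
Cdc20: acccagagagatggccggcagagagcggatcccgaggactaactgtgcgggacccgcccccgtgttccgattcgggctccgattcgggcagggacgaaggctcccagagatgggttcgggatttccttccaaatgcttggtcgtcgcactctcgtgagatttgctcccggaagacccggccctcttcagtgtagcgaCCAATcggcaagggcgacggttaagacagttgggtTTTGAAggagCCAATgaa

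The first question was how the replication and cycle genes differed between the pluripotent states. The 12 iPSC libraries without the NOD male clones, the 3 ESC and the 2 EpiSC were compared pairwise with edgeR's quasi-likelihood test, with p-values adjusted by Benjamini and Hochberg over all 3986 genes tested; the 3 comparisons share libraries. Of the 76 members, 38 passed the filter on low counts. Differences were few. The best supported was cyclin E1, which was lowest in EpiSC and highest in iPSC, although its EpiSC values lie at the floor of counts. Orc3, Orc4 and cyclin E2 ran the other way, with their highest values in EpiSC.

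**Figure D1:**
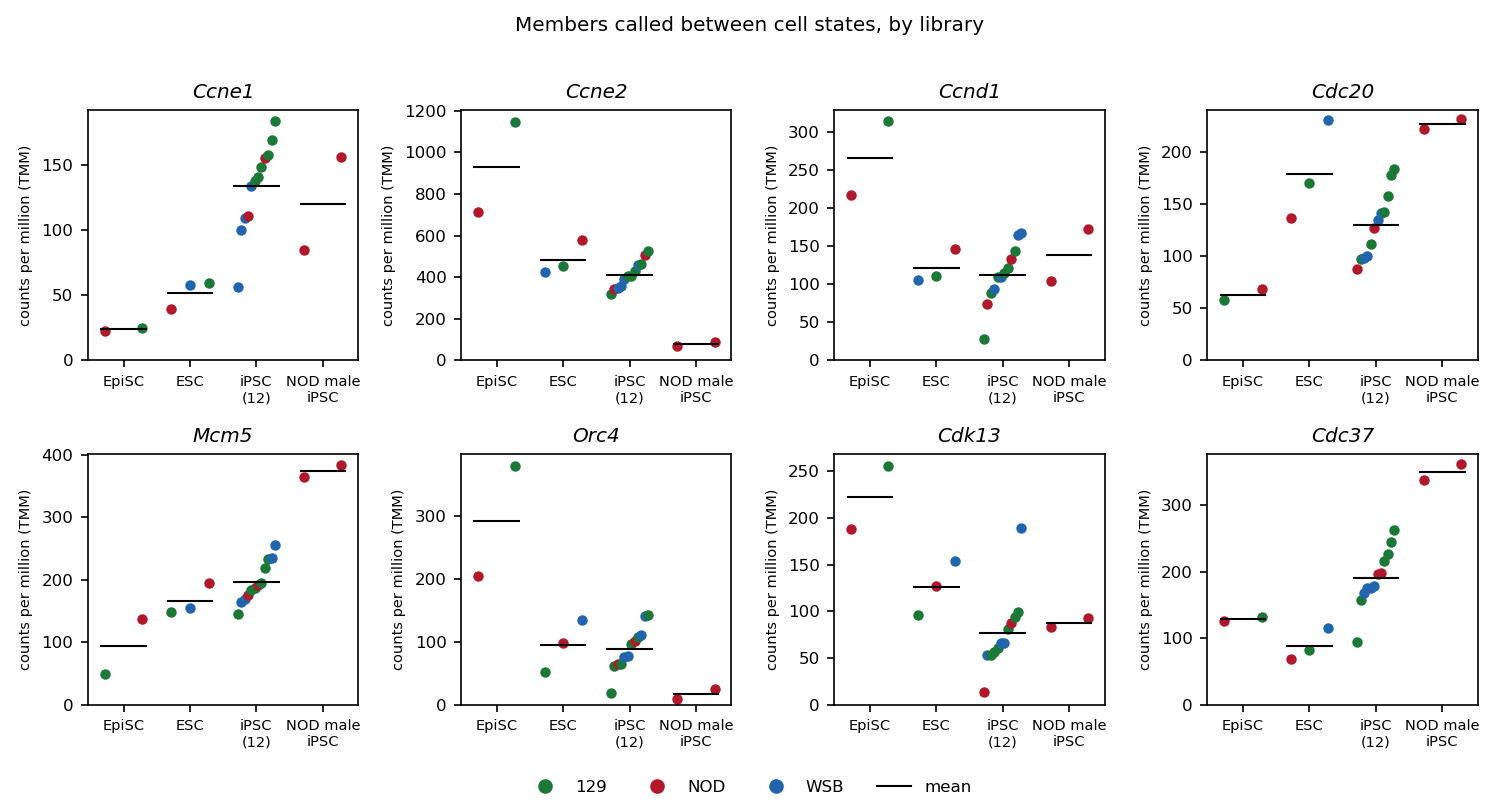
CPM of 8 members on linear axes in EpiSC, ESC, the 12 iPSC and the NOD male iPSC, with a point for each library coloured by strain and a line at the group mean. Ccne1 lies at 22.8 and 24.8 CPM in EpiSC and at 56.5 to 184 CPM in the 12 iPSC libraries, while Ccne2, Ccnd1 and Orc4 have both EpiSC above all other libraries.

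Ccne1 (chromosome 7, 38097984 to 38107534, minus strand), the cyclin that starts S phase with Cdk2, measured 22.8 CPM in NOD and 24.8 CPM in 129 EpiSC, from 4 and 3 counts. These counts lie at or next to the floor of 3, so that the level in EpiSC is uncertain. A minimum of 10 counts in every library removed Ccne1 from the tests. ESC measured 39.1 (NOD), 57.8 (WSB) and 59.2 CPM (129), and the iPSC from 56.5 to 184 CPM with a median of 139. All ESC and iPSC libraries were above both EpiSC, and only the lowest iPSC library, WSB female clone 28, reached down into the ESC range. The log2 fold change was 2.46 ± 0.43 (SE) for iPSC against EpiSC (edgeR adjusted p = 0.000204) and 1.34 ± 0.32 for iPSC against ESC (edgeR adjusted p = 0.0133). ESC against EpiSC gave 1.12, which did not pass (edgeR adjusted p = 0.188).

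Its paralog Ccne2 went in the opposite direction. EpiSC held 712 (NOD) and 1148 CPM (129), ESC 424 to 576 and iPSC 318 to 528 CPM with a median of 406, so that both EpiSC were above all others. The log2 fold change was -1.16 ± 0.21 for iPSC against EpiSC (edgeR adjusted p = 0.000392) and -0.93 ± 0.28 for ESC against EpiSC (edgeR adjusted p = 0.0280). The ESC call was lost with uniquely aligned read pairs as library size (edgeR adjusted p = 0.0745) and with no filter on low counts (edgeR adjusted p = 0.216). It was also lost without the WSB or the 129 ESC (edgeR adjusted p = 0.103 and 0.0821). Part of the Ccne2 exons, 17.4% of their length, is overlapped by Ints8 on the other strand.

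The D-type cyclin Ccnd1 was also higher in EpiSC. It measured 216 CPM in NOD and 314 CPM in 129 EpiSC, 106 to 147 CPM in ESC and 28.1 to 167 CPM in iPSC, without overlap between EpiSC and the rest. The iPSC value was lower by a log2 fold change of -1.21 ± 0.33 (edgeR adjusted p = 0.00843), whereas -1.11 for ESC did not pass (edgeR adjusted p = 0.0800). LTO1 overlaps 23.4% of its exon length. Ccnd2 was counted 20 times in NOD EpiSC and 0 to 3 times in every other library, below the filter. Ccnd3, Ccna2, Ccnb1 and Ccnb2 did not pass in any state comparison. For Ccnb1, the mitotic cyclin, all iPSC (32.8 to 145 CPM) were nonetheless above all ESC (19.5 to 29.6 CPM), with a log2 fold change of 1.21 (edgeR adjusted p = 0.205). The ESC values rest on 2 (NOD), 3 (WSB) and 4 counts (129). The lowest iPSC library, WSB male clone 25, had 3 counts, so that the gap lies at the floor.

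Among the origin genes, Orc3 (chromosome 4, 34570796 to 34614944, minus strand) held 2426 (NOD) and 1817 CPM (129) in EpiSC. ESC had 1006 (NOD), 674 (WSB) and 807 CPM (129), and iPSC 830 to 1897 CPM with a median of 1155. ESC thus lay apart from EpiSC, while the highest 129 iPSC overlapped the 129 EpiSC. The log2 fold change was -1.35 ± 0.33 for ESC against EpiSC (edgeR adjusted p = 0.00835) and -0.71 ± 0.26 for iPSC against EpiSC (edgeR adjusted p = 0.0442). The Orc3 call for iPSC was lost with no filter on low counts (edgeR adjusted p = 0.101), and both Orc3 calls without the NOD EpiSC. Orc4, another subunit, fell from 205 and 380 CPM in EpiSC to 51.8 to 135 CPM in ESC and 18.7 to 143 CPM in iPSC, by -1.62 ± 0.49 (edgeR adjusted p = 0.0307) and -1.67 ± 0.37 (edgeR adjusted p = 0.00182). The Orc4 call for ESC was lost with uniquely aligned read pairs as library size (edgeR adjusted p = 0.0757). It was also lost without the NOD or the 129 ESC (edgeR adjusted p = 0.0696 and 0.137). Orc1 and Orc6 did not pass in any of these comparisons.

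The helicase gene Mcm5 (chromosome 8, 75109569 to 75128439, plus strand) measured 137 (NOD) and 49.6 CPM (129) in EpiSC. It measured 195 (NOD), 154 (WSB) and 148 CPM (129) in ESC and 146 to 257 CPM in iPSC, and no library of either group reached down to EpiSC. The iPSC were higher by 1.02 ± 0.31 (edgeR adjusted p = 0.0185), and ESC gave 0.77 (edgeR adjusted p = 0.161). The iPSC call was lost with no filter on low counts (edgeR adjusted p = 0.0582). The other helicase subunits did not pass; their log2 fold changes for iPSC against EpiSC were 0.84 for Mcm2, 0.56 for Mcm3, -0.05 for Mcm4, 0.31 for Mcm6 and 0.17 for Mcm7. Summed over Mcm2 to Mcm7, the EpiSC held 1099 (NOD) and 545 CPM (129), ESC 869 to 1280 CPM and iPSC 923 to 1567 CPM, so that only the 129 EpiSC lay outside the range of the others.

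Cdc20 (chromosome 4, 118432901 to 118437352, minus strand), which activates the anaphase-promoting complex, was lowest in EpiSC at 68.3 (NOD) and 57.8 CPM (129). ESC measured 137 (NOD), 231 (WSB) and 170 CPM (129) and iPSC 87.7 to 184 CPM, all above EpiSC. The log2 fold change was 1.48 ± 0.39 for ESC (edgeR adjusted p = 0.0130) and 1.04 ± 0.34 for iPSC (edgeR adjusted p = 0.0272). The iPSC call was lost with DESeq2 (adjusted p = 0.0655), with no filter on low counts (edgeR adjusted p = 0.0874), with strain as a covariate (edgeR adjusted p = 0.0563) and with either EpiSC line left out, and the ESC call with either EpiSC line left out. Cdc42 was lower in ESC than in EpiSC by -1.39 ± 0.47 (edgeR adjusted p = 0.0486), a call that was lost with DESeq2 (adjusted p = 0.0654), with aligned read pairs as library size (edgeR adjusted p = 0.127), with no filter on low counts (edgeR adjusted p = 0.152), with strain as a covariate, and without any one of the 5 ESC and EpiSC lines (edgeR adjusted p = 0.0521 to 0.288). Cdc37 was higher in iPSC than in ESC by 1.11 ± 0.29 (edgeR adjusted p = 0.0225), with 93.5 to 263 CPM in iPSC and 68.4 to 116 CPM in ESC. The Cdc37 call was lost with no filter on low counts (edgeR adjusted p = 0.0632). It was also lost without the NOD or the 129 ESC (edgeR adjusted p = 0.171 and 0.123). Of the kinases, Cdk13, which acts in transcription rather than in the cycle, was lower in iPSC than in EpiSC by -1.53 ± 0.39 (edgeR adjusted p = 0.00613), whereas Cdk1 and Cdk4 did not pass.

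**Figure D2:**
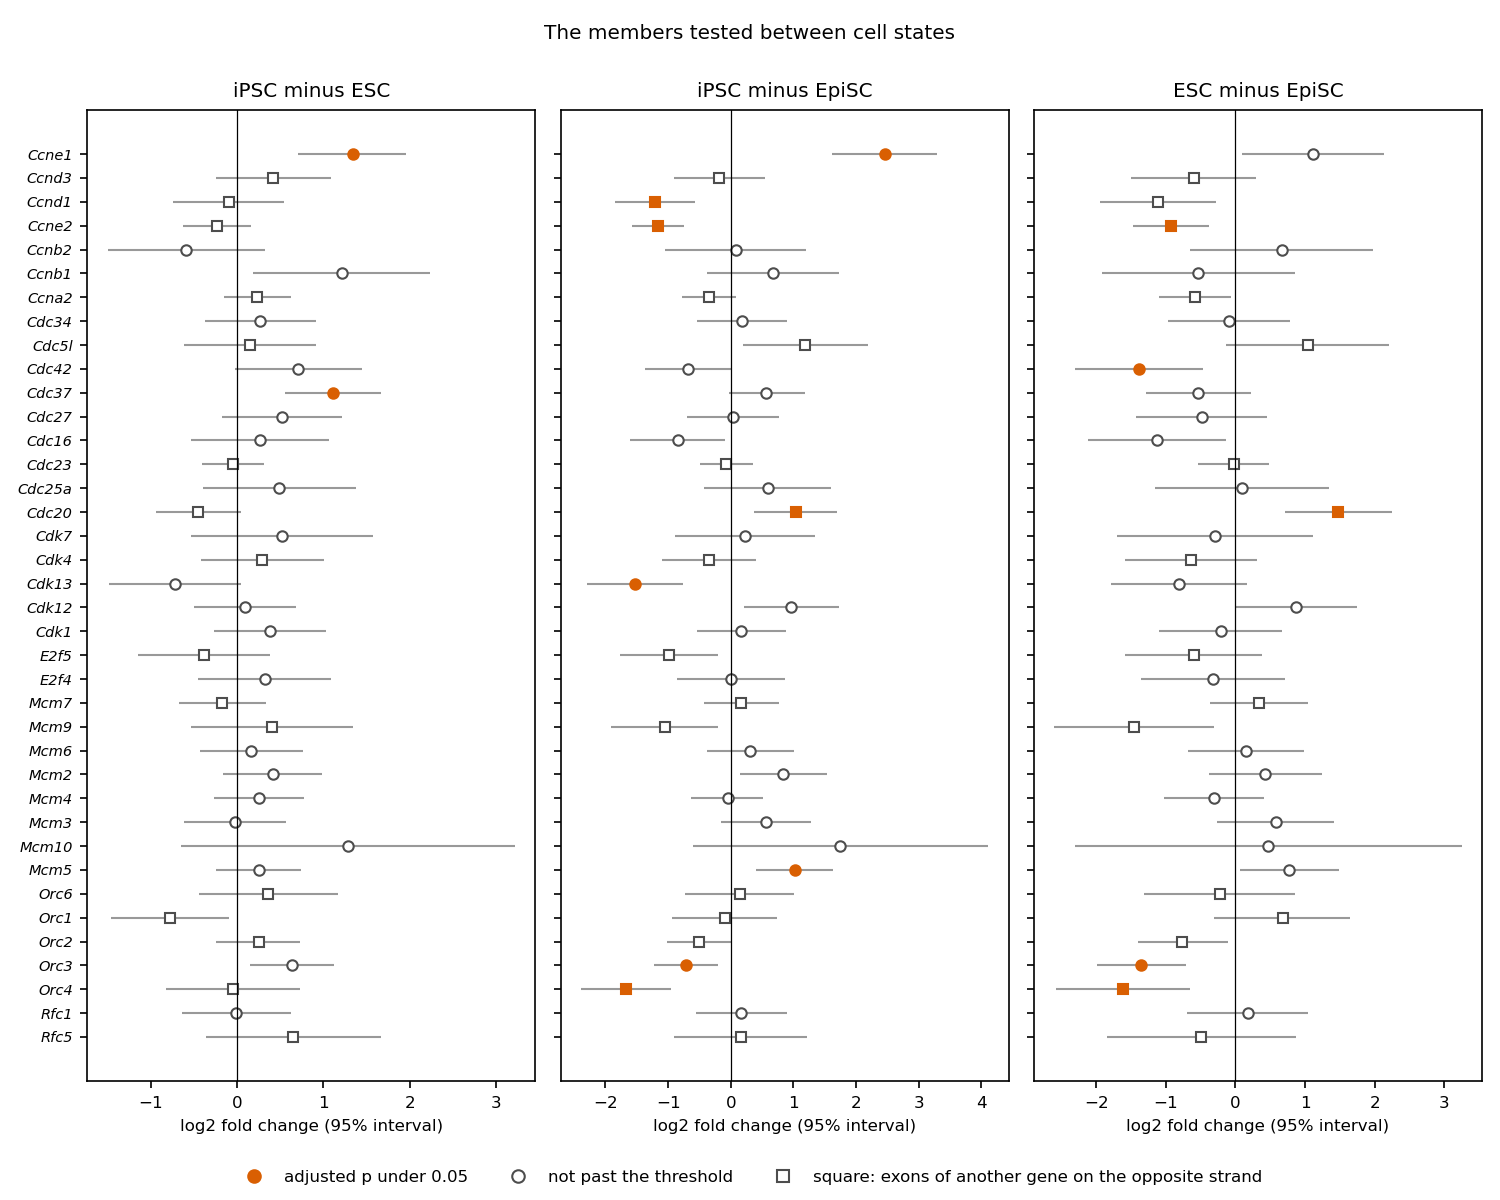
Log2 fold changes (x axis, with 95% intervals) of the 38 members tested in each of the 3 comparisons between states, filled where the adjusted p was under 0.05 and square where the exons are overlapped on the other strand. Filled points are few, 2 for iPSC against ESC, 8 for iPSC against EpiSC and 5 for ESC against EpiSC.

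In all, 8 of 38 tested members passed for iPSC against EpiSC (3 higher, 5 lower), where 28.3% of all genes tested did, 11.2% of them higher. For ESC against EpiSC 5 of 38 passed (13.2%; 1 higher, 4 lower) against 15.1% of all genes, 6.85% higher and 8.23% lower. For iPSC against ESC 2 of 38 passed (5.26%, both higher) against 6.22% of all genes, 1.00% being higher. The median log2 fold change of the tested members was 0.11, -0.30 and 0.26 in these comparisons, and that of all genes 0.10, 0.06 and 0.05. The share of members called was thus near or below that of all genes. Groups without overlap, noted above for single members, were common, at 22.4% of all genes for iPSC against EpiSC, 41.2% for ESC against EpiSC and 5.97% for iPSC against ESC. Cdk2, Cdk6, Ccnd2, Cdc6, Cdc45, Rfc3, E2f1, E2f2 and E2f3 were among the 38 members whose counts were too low to test.

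The EpiSC values rest on 2 lines, and without the 129 EpiSC only Ccne1 of the 8 members remained called for iPSC against EpiSC (2.51) and only Orc3 of the 5 for ESC against EpiSC (-1.55). Without the NOD ESC or without the 129 ESC, 0 members passed for iPSC against ESC by edgeR (6 and 3 at an unadjusted p under 0.05), Ccne1 then giving 1.17 (edgeR adjusted p = 0.120) or 1.43 (edgeR adjusted p = 0.0507). Fibroblast markers differed as well. Their sum over 17 genes was 2081 to 3152 CPM in ESC, 148 and 1098 CPM in EpiSC and 314 to 1033 CPM in the 12 iPSC, with Col1a1 lower in iPSC than in ESC by -6.20 on the log2 scale, and 2 of the 17 genes were at 0 in all ESC, 4 in both EpiSC and 7 in all 12 iPSC. Their part in the differences from ESC was not tested.

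Genes of the same pathways outside the families are given against the share of all genes called, 6.22% for iPSC against ESC, 28.3% for iPSC against EpiSC and 15.1% for ESC against EpiSC. Of the replication fork and licensing genes 17 were tested in each state comparison, and 0 passed for iPSC against ESC, while Tipin, a fork protection gene, was higher in iPSC than in EpiSC (1.44). Of 19 mitotic genes tested, Ccnf (1.66) was higher and Pkmyt1, an inhibitory kinase of Cdk1, lower (-3.11) in iPSC than in EpiSC, and Pkmyt1 was lower in ESC too (-2.52). Mybl2, an E2f target and cell cycle transcription factor, was 1 of 3 RB pathway genes tested and was higher in iPSC (3.64) and in ESC (3.05) than in EpiSC. The Cdk inhibitor gene Cdkn1a was lower in iPSC than in ESC (-1.78, edgeR adjusted p = 0.0388). Of 5 nucleotide supply genes and 3 checkpoint genes 0 passed in these comparisons.

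Strain was compared next, within iPSC of the same sex and medium. Mcm10 (chromosome 2, 4989714 to 5012791, minus strand), a replication initiation factor that is not part of the Mcm2 to Mcm7 ring, was far higher in NOD female iPSC. The NOD female clones 7 and 52 had 1155 and 958 CPM (199 and 142 counts), and the NOD male clones 3 and 35 had 308 and 220 CPM (230 and 127 counts). The 10 iPSC libraries of WSB and 129 had 0 to 146 CPM with a median of 91.3, so that all NOD iPSC lay above all others. The NOD males, for which 58.9% of all genes were called against the other iPSC, were not part of the strain test that follows. Against NOD females, WSB females were lower by -3.48 ± 0.38 (edgeR adjusted p = 5.72e-08). Mcm10 was the only one of 36 tested members to pass, where 3.98% of all genes did, 1.83% lower.

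NOD lines in the other states did not stand out in this way, with 114 CPM (20 counts) in NOD EpiSC and 29.3 CPM (3 counts) in NOD ESC against 33.0 CPM in 129 EpiSC and 164 and 126 CPM in WSB and 129 ESC. On a library size of uniquely aligned read pairs in place of counts on genes (aligned CPM), the NOD females had 16.7 and 12.1. The WSB and 129 iPSC had 0 to 1.99. The NOD males had 22.8 and 16.5, but this scale raised most genes in them. The median log2 fold change of all genes between NOD males and the other iPSC was 2.66 on it. The separation of the NOD males on this scale is thus not particular to Mcm10. A comparison of NOD females with the mean of the 5 other iPSC groups without the NOD males, added after the values were seen, gave 3.54 ± 0.22 (edgeR adjusted p = 5.13e-14), and Mcm10 was again the only member of 36 to pass, where 4.78% of all genes did. These values describe a gene picked for them. Of the neighbours counted within 100000 bases on either side, none reached the counts of Mcm10. In raw counts, not scaled by depth, Phyh also lay apart at few counts, with 6 and 6 in the NOD female clones against 0 to 2 in the WSB and 129 iPSC. The others overlapped, with 14 and 12 counts on Sephs1 (4 to 17), 0 and 0 on Ucma (0 in each) and 4 and 2 on Optn (0 to 4).

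**Figure D3:**
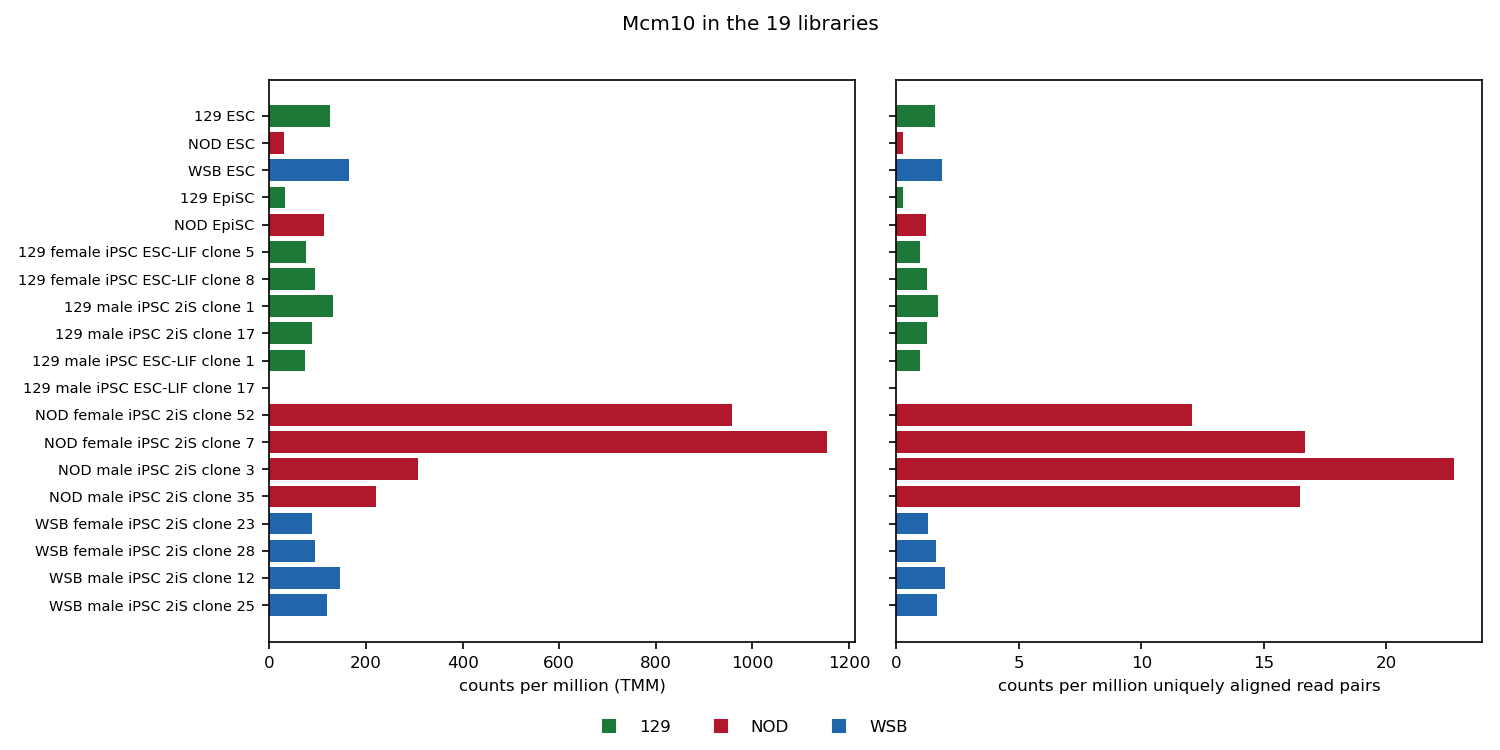
Mcm10 in each of the 19 libraries, as bars of CPM (left) and of aligned CPM (right) on linear axes from 0, coloured by strain. The 4 NOD iPSC libraries lie above the 10 iPSC libraries of WSB and 129 on both scales, the NOD females at 1155 and 958 CPM. The scale on the right raises most genes in the NOD male libraries, so that their bars there are not particular to Mcm10.

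The remaining members did not pass between WSB and NOD females. Cdk4 (-1.06, edgeR adjusted p = 0.236) and Mcm2 (-0.87, edgeR adjusted p = 0.180) had lower values in both WSB clones than in both NOD clones, and Ccnb1 (1.13, edgeR adjusted p = 0.291) higher ones, as 42.2% of all genes did not overlap between these pairs. Between WSB and 129 males in 2iS 0 of 36 members passed (0 called by edgeR with 2 at an unadjusted p under 0.05, 0 called by DESeq2 with 0 under 0.05), where 5.05% of all genes passed. Ccnd1 (1.22, edgeR adjusted p = 0.174) and the E2f family gene E2f5 (-1.43) had the largest values there, and of the replication fork genes outside the families Rpa1 was higher in WSB (1.41). Between female and male iPSC of WSB (in 2iS) and 129 (in ESC/LIF), 0 of 36 members passed by edgeR (2 under 0.05) and 0 by DESeq2 (1 under 0.05), against 1.68% of all genes. The largest difference was that of Cdk7, the Cdk-activating kinase, at -1.06. The interaction of sex and strain, which cannot be told apart from medium here, passed for 0 of 36 members in edgeR (smallest adjusted p = 0.460, 4 at an unadjusted p under 0.05).

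The medium was compared in the 2 male 129 clones, each grown in ESC/LIF and later in 2iS, so that medium and passage cannot be told apart. The helicase genes Mcm2 to Mcm6 had higher values in 2iS in both clones, although none passed the test. Summed over Mcm2 to Mcm7, clone 1 measured 938 CPM in ESC/LIF and 1282 CPM in 2iS, and clone 17 measured 1007 and 1480 CPM. All 7 Mcm genes tested had positive log2 fold changes, with a median of 0.68 against 0.01 for all genes tested. They were 1.10 for Mcm10 (95% interval 0.06 to 2.15), 0.72 for Mcm2 (0.06 to 1.38), 0.68 for Mcm3 (0.05 to 1.30), 0.72 for Mcm6 (-0.04 to 1.48) and 0.63 for Mcm4 (-0.04 to 1.29), and these 5 did not overlap between the media, as 44.4% of all genes tested did not with 2 libraries a group. Mcm5 gave 0.17 and Mcm7 0.16. In 2iS Mcm7 was lower in clone 1 (109 to 103 CPM) and higher in clone 17 (121 to 146 CPM).

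By edgeR 0 of 36 members passed (4 at an unadjusted p under 0.05) and by DESeq2 0 (1 under 0.05), where 4.10% of all genes did, and the smallest adjusted p of an Mcm gene was 0.322 (edgeR, Mcm2). Mcm10 depends on single libraries, with 15 and 0 counts in ESC/LIF and 14 and 11 in 2iS for clones 1 and 17, and became the only member called when ESC/LIF clone 1 was left out (6.81, edgeR adjusted p = 0.0198). Orc6 (1.09) and Orc1 (0.88) had positive and Ccnd1 (-0.89), Cdc20 (-0.69) and Orc3 (-0.51) negative values. Ccne1 gave -0.23. Of 15 replication fork and 17 mitotic genes outside the families 0 passed in this comparison.

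**Figure D4:**
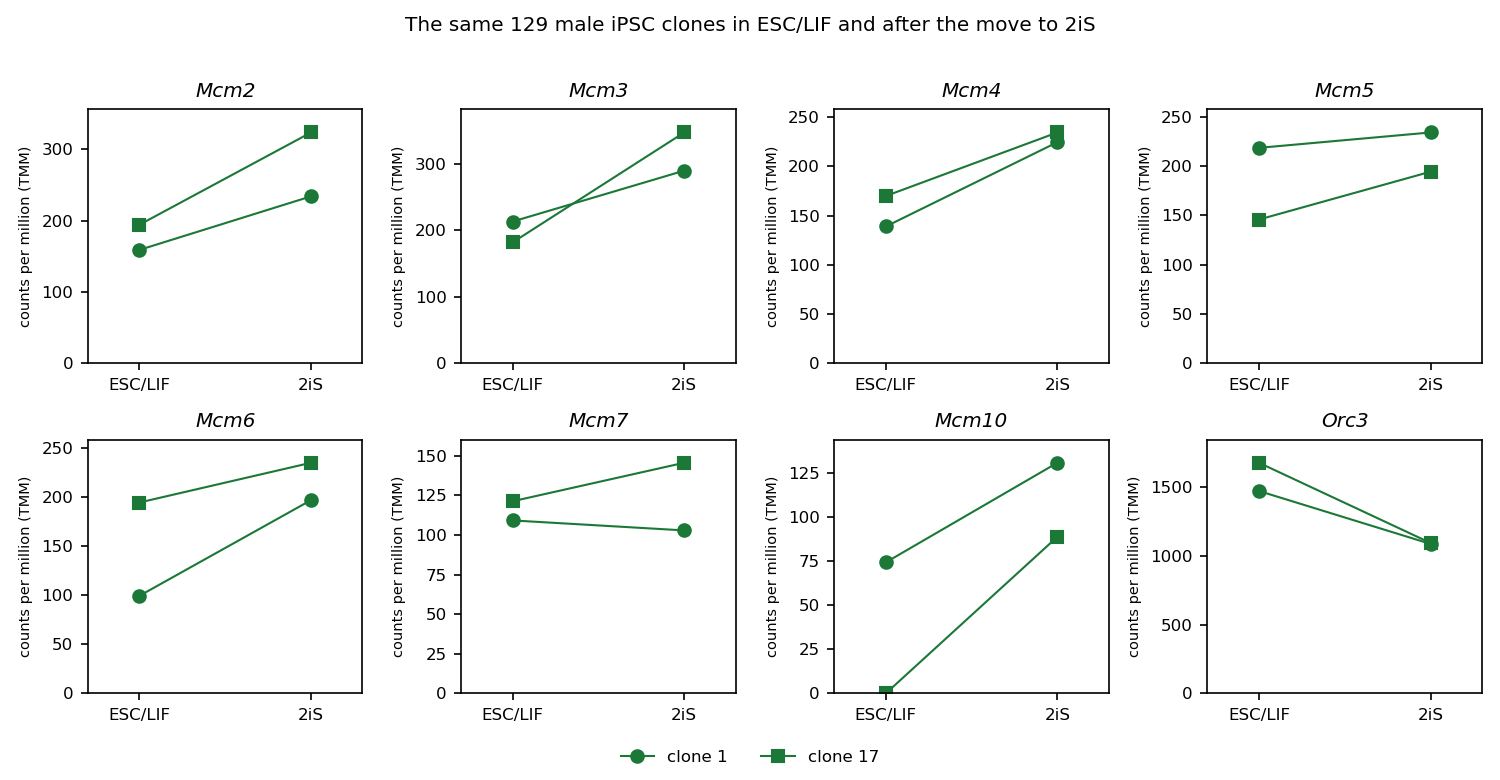
CPM of 7 Mcm genes and Orc3 in the 2 male 129 iPSC clones, on linear axes from 0, with a line from each clone in ESC/LIF to the same clone in 2iS. The lines of Mcm10 and Mcm2 to Mcm6 rise and those of Orc3 fall in both clones, while none of these differences passed the test.

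The 2 NOD male iPSC libraries, with a larger share of reads on genes, were set against the 10 other iPSC clones, with the 129 males in ESC/LIF. Here 29 of 47 tested members passed (61.7%; 22 higher, 7 lower), where 58.9% of all genes did, 32.4% higher and 26.6% lower. The share of members was thus near that of all genes. With clone 3 left out 19 members were called, and with DESeq2 14 (7 higher, 7 lower), the 7 lower members being called by both tools. Called higher by both tools were Mcm2, Mcm3, Mcm5, Mcm10, Cdk4, Cdc34 and Cdc37, and lower Orc2, Orc3, Orc4, Ccna2, Ccne2, Cdc23 and E2f5. The fibroblast markers moved too, at 2822 and 3882 CPM in NOD males against 314 to 1033 CPM in the others, 9 of 17 being at 0 in both NOD male libraries and Fn1 higher by 2.71 on the log2 scale. Their part in the differences was not tested.

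Cdk4, the partner of D-type cyclins, measured 312.1 (clone 3) and 296 CPM (clone 35) against 56.5 to 175 CPM with a median of 107 in the other clones, a log2 fold change of 1.59 ± 0.20 (edgeR adjusted p = 1.28e-07). On the other strand, Tspan31 overlaps 19.7% of the Cdk4 exon length. Mcm2 measured 634 and 621 CPM against 159 to 406 CPM with a median of 198, which gave 1.50 ± 0.18 (edgeR adjusted p = 2.36e-08). The ubiquitin-conjugating enzyme gene Cdc34 measured 283 and 234 CPM against 65.9 to 149 CPM (1.35 ± 0.21). None of these 3 overlapped between the groups, as 37.8% of all genes did not. The other Mcm genes that rose were Mcm3 (1.21), Mcm5 (0.97), Mcm10 (0.92), Mcm6 (0.62), Mcm4 (0.51) and Mcm7 (0.49), which made 7 of 8 tested. With DESeq2, Mcm4, Mcm6 and Mcm7 did not pass (adjusted p = 0.355, 0.239 and 0.417). For Mcm10 the comparison was with the mean of the log values of groups, and the NOD females in it, at 1155 and 958 CPM, lay above both NOD males (308 and 220 CPM), the other 8 clones lying at 0 to 146 CPM. Its call was lost without clone 3 (0.63, edgeR adjusted p = 0.0813), and without the NOD females the value was 1.64. Mcm2 to Mcm7 summed to 2189 and 2192 CPM.

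Of 8 Cdk genes tested, 5 rose, and besides Cdk4 they were Cdk9 (1.17), Cdk2 (1.12), Cdk16 (0.92) and Cdk1 (0.69). Cdc37 (0.94), Cdc6 (0.94), Cdc20 (0.78), the splicing gene Cdc5l (0.70) and the phosphatase gene Cdc25a (0.60) rose with Cdc34, and so did Ccnb2 (1.14), Orc1 (1.12), Rfc2 (0.95) and Rfc1 (0.57). Of these 13 genes besides Cdk4 and Cdc34, only Cdc37 was called by DESeq2 too; the adjusted p by DESeq2 of the other 12 was 0.0935 (Orc1) to 0.398 (Cdc25a), which left 1 of 8 Cdk genes. Ccne1 (-0.08), Ccnd1 (0.18), Ccnd3 (-0.29), Ccnb1 (-0.18), Orc6 (0.43) and E2f3 (0.12) did not pass.

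Orc3 measured 202 and 163 CPM in NOD males against 830 to 1897 CPM in the other clones with a median of 1252, a log2 fold change of -2.79 ± 0.21 (edgeR adjusted p = 4.61e-12). Cdc23, a subunit of the anaphase-promoting complex, measured 885 and 1109 CPM against 2966 to 5727 CPM (-2.07 ± 0.19). Ccna2, the cyclin of S and G2 phase, measured 222 and 358 CPM against 640 to 1187 CPM (-1.57 ± 0.20). Ccne2 (-2.33), E2f5 (-2.33), Orc4 (-2.53) and Orc2 (-0.78) were lower as well, and of the 7 only Orc2 overlapped, at 103 and 72.7 CPM against 98.98 to 199 CPM.

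Of these 7 genes 6 have exons that overlap a gene on the other strand, Orc3 being the exception. Among all genes tested, 47.6% of those with such exons were called lower and 21.5% higher, while without them 8.61% were lower and 41.9% higher. Among members, 6 of 20 with such exons were lower and 7 higher (Cdk4, Cdk2, Cdc20, Cdc5l, Orc1, Rfc2 and Mcm7), and 1 of 27 without them was lower and 15 higher. The part of the strand in the counting was not tested. The direction also depended on the scaling. With uniquely aligned read pairs as library size, the median of all genes in this comparison shifted from 0.27 to 2.66, 43 of 47 members were higher and 0 lower, and Orc3 gave -0.39, Orc4 -0.16, E2f5 0.00, Ccne2 0.08, Cdc23 0.34, Ccna2 0.84 and Orc2 1.62, all below that median.

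**Figure D5:**
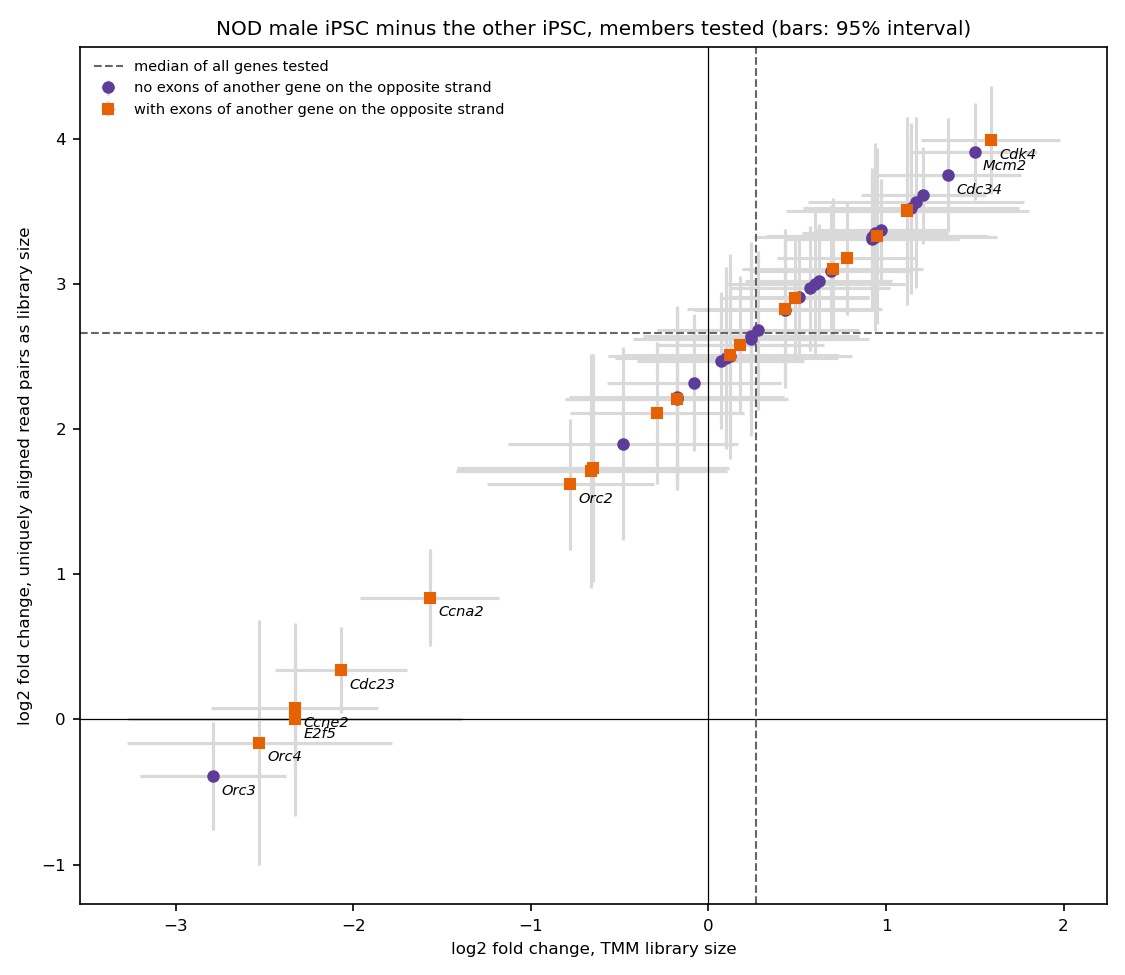
Log2 fold changes (with 95% intervals) of the 47 members tested between the 2 NOD male and the 10 other iPSC clones, with the TMM library size on the x axis and uniquely aligned read pairs as library size on the y axis, squares marking members whose exons are overlapped on the other strand and dashed lines the median of all genes. The 7 members called lower on the x axis lie apart at the lower left, at -0.39 (Orc3) to 1.62 (Orc2) on the y axis.

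Other pathway genes moved in the same comparison. Of 21 replication fork and licensing genes tested 9 rose and 0 fell, among them Chaf1b (1.78) and the licensing factor gene Cdt1 (1.41), with a median log2 fold change of 0.60 against 0.27 for all genes. Of 23 mitotic genes 12 rose and 1, Kif20a, fell (-1.74), with a median of 0.68. Kif20a is the gene that overlaps Cdc23. Cdkn1a rose (1.84), as did 2 of 4 checkpoint genes and 2 of 5 RB pathway genes, while 1 of 5 RB pathway genes fell. In this comparison these lists, like the members, are to be read against the 32.4% of all genes that were higher.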

How the data were processed

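The mRNA of 19 mouse libraries (TruSeq Stranded kit) was sequenced in read pairs. Per the labels and the study's methods, the authors trimmed reads with Trimmomatic, aligned them to GRCm38 with TopHat2 2.1.1 and deposited raw counts per gene made with HTSeq in the intersection-nonempty mode; its strand setting is not given in the sources used here. Rows of unassigned reads (no gene, ambiguous, not unique) were kept out of library sizes; 94.4 to 98.9% of uniquely aligned read pairs fell on no gene. CPM uses counts on genes scaled by TMM over all 19 libraries, and aligned CPM uniquely aligned pairs.

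Groups came from titles. Genes were filtered with filterByExpr and tested with edgeR 4.0.16 in R 4.3.3 (TMM, quasi-likelihood test, Benjamini-Hochberg threshold 0.05); an SE is the size of the log2 fold change over the root of F. States were fitted as 3 groups of 17 libraries, without the NOD male iPSC, which the study left out. Strain, sex and medium were fitted in 6 groups of the 12 other iPSC libraries, and NOD males in a fit of 12 iPSC with the mean of 5 groups as the other side. DESeq2 1.42.0, other scalings and filters, other labels, a strain covariate, a clone block and single libraries left out were alternatives. Opposite-strand exons came from GENCODE M21, where 93% of genes and 76 of 76 members matched by symbol. Scripts were tested on simulated data.

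The members, lists and markers were chosen with earlier results of these data known. Named were the members called in a comparison (the 25 with the largest changes if more) and a fixed set of central members. The nucleotide supply list is not reported here for the NOD male iPSC. Within groups of strain, sex and medium, replicates differed by clone and passage, and p-values measure the spread between clones. In the state fit, the ESC and the EpiSC lines of a group differed in strain. The iPSC there differed in strain, sex and medium. P-values of the state fit measure this mixed spread, and the 2 male 129 clones entered it in both media as separate libraries. The same 2 clones pair the 129 libraries in both media; deviations of clone 1 from clone 17 correlated at 0.06 between media over 3388 genes.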

Additional observations from a re-analysis of the deposited data

Results flagged for a closer look

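Among the 10 iPSC clones set against NOD males, 47 members were tested for a single clone apart from the other 9, and 4 were found, where chance gives about 1 in 20 groups. At that rate chance alone gives a few among 47 members. The clones also differ in strain, sex and medium. In each, the gap of the highest clone to the next, divided by the range, was above Dixon's 95% critical value. Ccnb1 measured 145 CPM in WSB female clone 23, the next clone being at 79.4 and the lowest at 32.8 CPM. Cdk13 was high in the same clone, at 190 CPM with the next at 99.2 and the lowest at 13.5 CPM. Cdk1 measured 168 CPM in NOD female clone 7 (next 105, lowest 56.5 CPM), and Rfc4 120 CPM in WSB male clone 25 (next 67.5, lowest 16.5 CPM). The high values rest on few counts, 13 for Ccnb1, 17 for Cdk13, 29 for Cdk1 and 11 for Rfc4.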

How the results depend on the processing

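The number of members called was 2 for iPSC against ESC, and became 4 with aligned read pairs as library size, 0 when each library had to hold 10 counts or more of a gene (the count minimum), 0 with conditions read from source names in place of titles (the other labels), and 0 to 2 with single ESC lines left out. For iPSC against EpiSC (8 called) these were 2 with the count minimum, 4 among members without exons on the opposite strand, 0 with the other labels and 2 to 8 with an EpiSC line left out (the lone EpiSC then being assumed to vary like the other groups), 2 without the 129 EpiSC; with aligned read pairs 9 were called, 7 higher and 2 lower, and Ccnd1 (-0.65), Cdk13 (-0.97) and Orc3 (-0.22) no longer passed. With strain as a covariate 9 were called there and 6 for ESC against EpiSC; of the genes named, Mcm10 (2.38, edgeR adjusted p = 0.0271) and Mcm2 (0.97, edgeR adjusted p = 0.0453) then passed for iPSC and Ccnd1 (-1.19, edgeR adjusted p = 0.0498) for ESC, while Cdc20 (0.94, edgeR adjusted p = 0.0563) and Orc3 (-0.58, edgeR adjusted p = 0.0769) for iPSC and Cdc42 (-1.22, edgeR adjusted p = 0.0647) for ESC no longer did. For ESC against EpiSC (5 called) there were 2 with aligned read pairs, 3 with no filter, 2 with the count minimum, 2 without opposite-strand members, 0 with the other labels and 1 to 4 with single lines left out, 1 being without the 129 EpiSC. For NOD males (29 called) DESeq2 called 14 (7 higher, 7 lower), the count minimum left 12, members without opposite-strand exons 16, and leaving out clone 3 or 35 gave 19 to 20; without the NOD females, an alternative chosen after seeing the data, 29 were called. Reversed there with aligned read pairs were Ccna2 (0.84), Ccne2 (0.08), Cdc23 (0.34), E2f5 (0.00), Orc2 (1.62), Ccnd3 (2.11), Ccne1 (2.32) and Ccnb1 (2.22), all of them below the median of all genes, which that scaling raised from 0.27 to 2.66, and with the count minimum Orc2 (0.30) and Ccnd3 (0.80), for which the cause was not tested. Between media 0 to 1 member passed with single libraries left out, and clone as a replicate block on the 4 libraries gave 0 (4 at an unadjusted p under 0.05); the block changed no call. For WSB against NOD females (1 called) 2 passed with no filter, 0 with the count minimum, which removed Mcm10, and 1 to 2 with single clones left out, 2 being without NOD female clone 7. WSB against 129 males and female against male gave 0 under each alternative run. With aligned read pairs the median of all genes moved to 0.34, 0.62 and 0.29 for the 3 state comparisons, in the order above, and 2.66 for NOD males, and the calls among all genes went from 40 higher and 208 lower to 197 and 129 for iPSC against ESC; the share of higher calls went from 39.7 to 76.9%, 45.4 to 62.8% and 54.9 to 96.4% for the other 3; it moved from 54.1 to 74.2% for WSB against NOD females and from 68.4 to 82.5% for female against male. Counts under 20 per library in many members limit what a missed test can show.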
